A study of Drosophila melanogaster with 6 samples.

Results

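The genes described here are the prophenoloxidases and their melanization partners, a list of 10 genes (PPO1, PPO2, PPO3, Sp7, MP1, Hayan, yellow-f, yellow-f2, ple and Ddc) read by gene name from the count table of 13395 genes. Of the 10, 9 were found in the table, and MP1 was not analysed here. The values come from blood cells of the fly, called hemocytes, of the genotype Hml-GAL4.delta, UAS-GFP, in which the promoter of hemolectin (Hml) drives GFP. Both groups carry the same driver and reporter, and cells with GFP were sorted by flow cytometry. The larval group has 3 libraries from wandering third-instar larvae, and the prepupal group has 3 from white prepupae in the first hours after puparium formation. The sources used here do not give the number of animals pooled for a library, and nothing says that libraries came from separate cultures, so p-values measure only the spread between these libraries, which may be technical.

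Melanization is the defence by which flies seal wounds and encase parasites in dark pigment. Prophenoloxidases are the inactive enzymes. Serine proteases cut them, and the resulting phenoloxidases turn phenols such as dopa and dopamine into quinones that polymerise to melanin. PPO1 and PPO2 are known from crystal cells, a blood cell type that stores them and bursts to release them, and PPO3 is known from lamellocytes, flat cells that wrap parasites. Sp7, MP1 and Hayan are serine proteases of the activating cascade, yellow-f and yellow-f2 encode enzymes that convert dopachrome, and ple (tyrosine hydroxylase) and Ddc (dopa decarboxylase) make dopa and dopamine.

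Libraries held 19228352 to 25958543 counts. Levels are in CPM (counts per 1000000, with libraries scaled by TMM factors) or, where members are compared per length, in RPKM, which is CPM divided by the exonic length in kilobases. Sums over gene lists are in CPM and some comparisons of genes are in raw counts, neither of which is corrected for length. Stage differences were tested over 7914 genes with enough counts by the quasi-likelihood test of edgeR, a gene was called at a Benjamini-Hochberg adjusted p (FDR) below 0.05, and all log2 fold changes are prepupal over larval. With 53.9% of all tested genes called, 26.6% higher and 27.3% lower in prepupae, a call by itself sets no gene apart. Hml, whose driver marked the cells, was lower in every prepupal library, at 248, 83.9 and 114 CPM in replicates 1, 2 and 3 against 5164, 3208 and 6364 CPM in larvae. Of the 9 plasmatocyte markers, which include Hml, 8 were lower and 1, crq, was higher. Summed, they ranged from 17011 to 25476 CPM in larval and from 4502 to 7009 CPM in prepupal libraries. In bulk RNA, fewer cells of a type and less RNA per cell cannot be told apart.

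The main crystal cell prophenoloxidases were lower in prepupal hemocytes, PPO2 more so than PPO1, while PPO3, the protease gene Sp7, yellow-f and ple were higher. Hayan was not called, and Ddc and yellow-f2 had too few counts for a test. In numbers, 7 of the 9 genes were tested, 4 were called higher (against 26.6% of all tested genes), 2 lower (against 27.3%) and 1 was not called. In 6 of the 7 the CPM ranges of the stages did not overlap, which was the case for 63.0% of all tested genes. Of these 7, ple passed the filter on low counts only through its prepupal libraries, so it had to differ to be tested at all. The median log2 fold change of the 7 was 0.63, beside -0.026 for all tested genes, and it joins genes that moved in opposite directions.

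**Figure D1:**
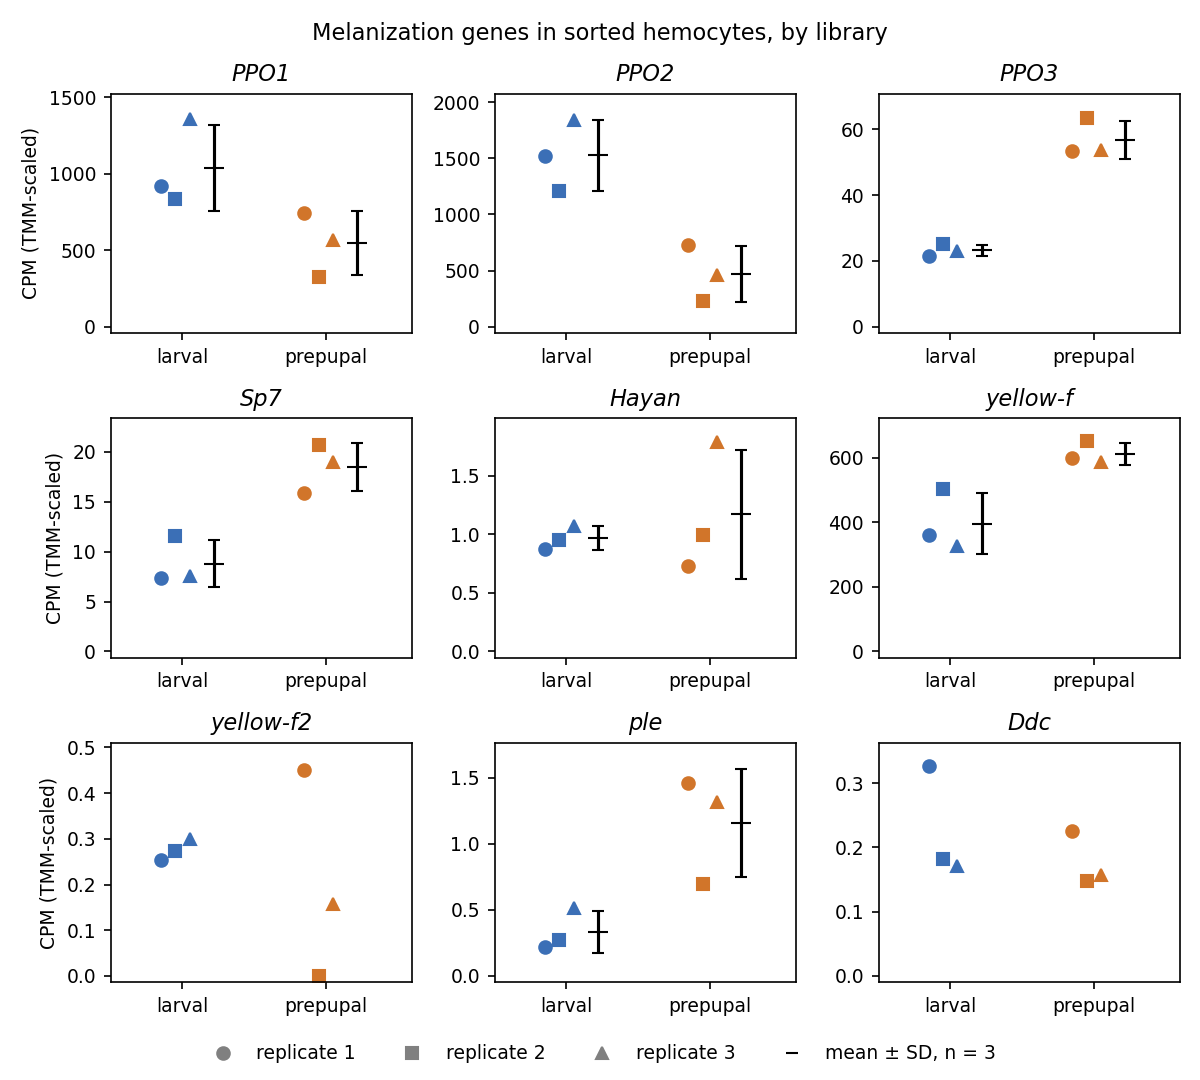
CPM of the 9 melanization genes in each library, with larval libraries in blue and prepupal libraries in orange, 1 symbol per replicate, and the mean ± SD (n = 3) in black for the 7 tested genes. PPO1 and PPO2 lie lower and PPO3, Sp7, yellow-f and ple higher in all 3 prepupal libraries, while the stages overlap for Hayan, yellow-f2 and Ddc.

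PPO2 (FBgn0033367, chromosome 2R, 9042261 to 9044709 of BDGP6, minus strand, 1 transcript with 4 exons) gave 41859, 26693 and 42883 counts in larval replicates 1, 2 and 3 and 12916, 4603 and 8722 counts in prepupal replicates 1, 2 and 3, the order kept below. These are 1521, 1213 and 1841 CPM against 726, 228 and 458 CPM. Every prepupal library lay below every larval library, and prepupal replicate 2 was the lowest of all. The mean fell from 1525 ± 314 CPM (SD, n = 3) to 471 ± 249 CPM (SD, n = 3). edgeR put the log2 fold change at -1.70 with a standard error of 0.35 and an FDR of 0.0027, and larval hemocytes held 3.24 times as much PPO2 RNA. Among all tested genes, 5.41% had a lower log2 fold change. Leaving out 1 library at a time moved it between -1.36, without prepupal replicate 2, and -2.15, without prepupal replicate 1, and it was called each time.

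PPO1 (FBgn0283437, chromosome 2R, 17887220 to 17889973, minus strand, 1 transcript with 6 exons) lies opposite the gene Elk, with which it shares no exonic base. Larval libraries gave 25280, 18334 and 31675 counts and prepupal ones 13203, 6606 and 10861, or 919, 833 and 1360.1 CPM against 742, 327 and 570.3 CPM. The stages did not overlap, but the lowest larval (replicate 2) and the highest prepupal library (replicate 1) were close. The mean fell from 1037 ± 283 CPM (SD, n = 3) to 547 ± 209 CPM (SD, n = 3). The edgeR estimate was a log2 fold change of -0.92 with a standard error of 0.28 (FDR = 0.019). This call was weaker than that of PPO2. It was lost without larval replicate 3 (log2 fold change -0.66, FDR = 0.065, edgeR) and without prepupal replicate 3 (-0.95, FDR = 0.052), with the alternatives other than left-out libraries giving an FDR of 0.00075 to 0.032.

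PPO3 (FBgn0261363, chromosome 2R, 23064769 to 23067183, plus strand, 1 transcript with 4 exons) moved the other way. Larvae gave 591, 550 and 538 counts and prepupae 947, 1282 and 1021, which are 21.5, 25.0 and 23.1 CPM against 53.3, 63.5 and 53.6 CPM. Every prepupal library lay above every larval one. Replicates differed little within a stage, with coefficients of variation of 7.57% and 10.2%, against 27.3% and 38.2% for PPO1 and 20.6% and 53.0% for PPO2. From 23.2 ± 1.76 CPM (SD, n = 3) PPO3 rose to 56.8 ± 5.79 CPM (SD, n = 3), which is 2.45 times the larval level. In edgeR this was a log2 fold change of 1.29 with a standard error of 0.12 (FDR = 4.5e-05). A change of larger size in either direction was found in 13.8% of all tested genes. Reads that match more than 1 of the 3 paralogs could have been assigned unevenly, which the counts do not show.

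Set against each other per length, the 3 prophenoloxidases changed in amount and in proportion. Their summed level was 1070, 899 and 1400 RPKM in larval replicates 1, 2 and 3 and 660.0, 268 and 469 RPKM in prepupal replicates 1, 2 and 3. PPO2 was the most abundant of the 3 in every larval library, with 1.70, 1.49 and 1.39 times the RPKM of PPO1. In prepupal replicate 1 the 2 genes were level, with a ratio of 1.00, and in replicates 2 and 3 PPO2 stood below PPO1, with ratios of 0.715 and 0.823. The log2 ratio of PPO2 to PPO1 went from 0.61 ± 0.15 to -0.25 ± 0.25 (SD, n = 3 each). The ranges did not overlap, and an exact two-sided permutation test gave p = 0.1, the smallest that 3 against 3 libraries allow. Libraries were permuted freely, without keeping pairs of equal number, and the prepupal library had the lower ratio in each of the 3 pairs. PPO3 made up 0.901%, 1.25% and 0.741% of the sum in larvae and 3.62%, 10.6% and 5.13% in prepupae, again with p = 0.1 (exact permutation test, n = 3 each). It therefore stayed the least abundant of the 3 in every library.

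**Figure D2:**
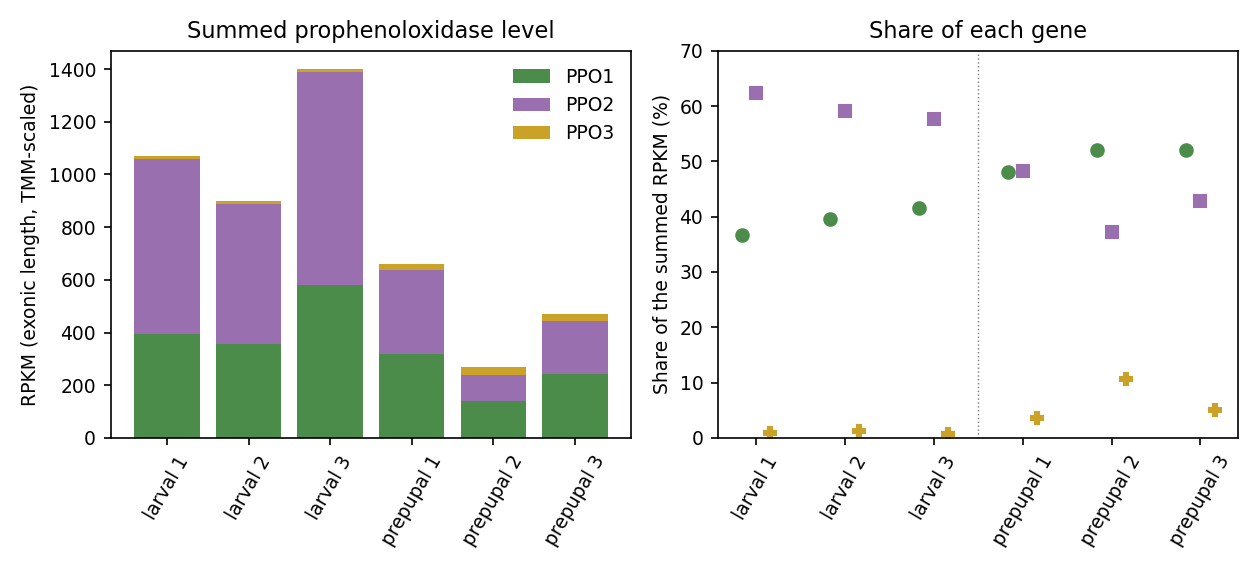
Left, RPKM of PPO1, PPO2 and PPO3 stacked for each library. Right, the share of each gene in that sum, as a percentage, with a dotted line between the stages. The sum lies between 899 and 1400 RPKM in larval and between 268 and 660.0 RPKM in prepupal libraries, and the points of PPO2 lie above those of PPO1 in the 3 larval libraries but not in prepupal replicates 2 and 3.

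Crystal cell markers other than the prophenoloxidases were also measured. Of 8 such genes, 5 were called lower (27.3% of all tested genes were) and 1 higher (26.6%). With the replicate number as a block Men was called lower as well, and with DESeq2 size factors aay was called higher. The transcription factor genes of this list, lz and peb, were scarce. For lz there were 46, 27 and 79 counts in larvae and 15, 3 and 3 in prepupae, and for peb 89, 40 and 135 against 41, 8 and 12. Their log2 fold changes were -2.47 for lz, with an FDR of 0.011 in edgeR, and -1.72 for peb, with an FDR of 0.041, whose stages overlapped and whose call was lost with the length trend removed. The other lower genes were CG17109 (-3.51), fok (-1.42) and CG10467 (-0.54). CG17109, with 130, 63 and 38 counts in larvae and 8, 0 and 7 in prepupae, and lz passed the filter on low counts only through the larval libraries, so they had to differ to be tested. The gene peb also needed its larval libraries to pass, since prepupal replicate 2 had only 8 counts, so its call carries the same limit. The higher one was CG7860, which went from 249.7 ± 70.3 CPM (SD, n = 3) to 1038 ± 209.6 CPM (SD, n = 3), and with it the summed level of the list rose from between 710 and 769 CPM to between 1175 and 1474 CPM. The part of crystal cell number in the fall of PPO1 and PPO2 was not tested.

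No lamellocyte marker was called higher in prepupae beside PPO3. Of 5 such genes, PPO3 itself left out, 4 were tested, 2 of them (cher and msn) were lower (27.3% of all tested genes were) and none was higher by edgeR (0 genes), at an unadjusted p below 0.05 (0 genes higher), by DESeq2 (0) or by limma-voom (0). The list summed to between 1490 and 2070 CPM in larval and between 680 and 897 CPM in prepupal libraries. Most of this sum came from cher, msn and mys. Their means were 772, 618 and 436 CPM in larvae and 18.4, 270 and 515 CPM in prepupae. ItgaPS4 had only 30, 17 and 6 counts in larvae and 23, 0 and 13 in prepupae, so the sum hardly reflects ItgaPS4 or atilla. The gene mys (log2 fold change 0.24) was called higher when the length trend or the replicate number was fitted. The surface marker atilla, which defines lamellocytes, was near the floor, with 15, 15 and 5 counts in larvae and 9, 0 and 3 in prepupae, where PPO3 had at least 538 counts. The part of lamellocyte number in the rise of PPO3 was not tested.

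Within a stage, the libraries that were high for some of these genes were low for others. Larval replicate 2 was the lowest larval library for PPO1 and PPO2 (-0.28 and -0.31 from the stage mean on the log2 CPM scale), and prepupal replicate 2 was the lowest prepupal one (-0.66 and -0.89). The same libraries were the highest of their stage for PPO3, Sp7 and yellow-f. In prepupal replicate 2 these deviated by 0.17, 0.17 and 0.09, in larval replicate 2 by 0.11, 0.42 and 0.37. The other tested genes did not share this order: ple, higher in prepupae, lay at -0.17 in larval replicate 2 and was the lowest of its stage in prepupal replicate 2 (-0.61), and Hayan lay at -0.01 and -0.13. The libraries highest for PPO1 and PPO2 were larval replicate 3 and prepupal replicate 1. These were also the highest of their stage for lz (0.79 and 1.29), peb (0.82 and 1.34), CG10467 (0.11 and 0.31) and Hml (0.43 and 0.90). The remaining crystal cell markers did not all follow, since CG17109 (-0.75), CG7860 (-0.39) and aay (-0.19) were lowest in larval replicate 3 and aay was lowest in prepupal replicate 1 (-0.19). These are descriptions over 3 libraries a stage, and what sets the libraries apart was not tested.

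**Figure D3:**
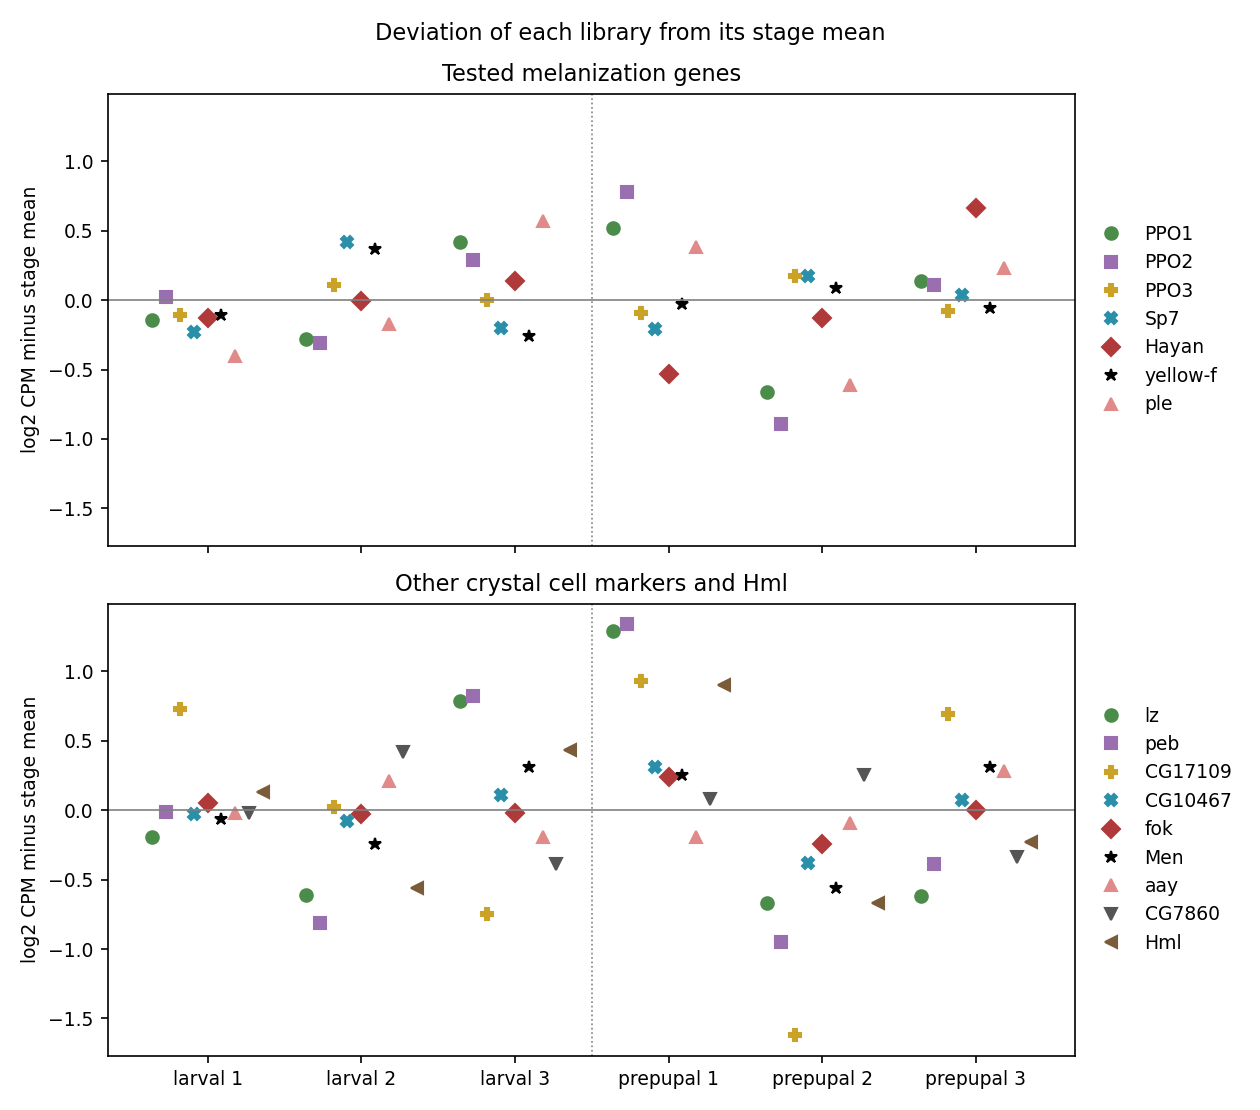
Deviation of each library from the mean of its stage, in log2 CPM, for the 7 tested melanization genes (top) and for the 8 other crystal cell markers and Hml (bottom), with a dotted line between the stages. In replicate 2 of both stages PPO1, PPO2 and ple lie below 0 and PPO3, Sp7 and yellow-f above it, and among the markers lz, peb and Hml lie below 0 there while CG7860 lies above it.

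The genes whose profile over the 6 libraries lay nearest to that of PPO1, by the distance of log2 CPM values centred on each gene's mean among 6309 genes of at least 5 CPM, were jumu (0.43), CG9119 (0.47) and Nuak1 (0.47). Nearest to PPO2 were pad (0.40), P5CDh1 (0.58) and vkg (0.62), which encodes a collagen IV chain and fell from 3884 to 1138 CPM. PPO1 and PPO2 were 1.13 apart, so that PPO1 took rank 106 among the neighbours of PPO2 and PPO2 rank 1112 among those of PPO1.

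Among the proteases, Sp7 (FBgn0037515, chromosome 3R, 7759786 to 7763947, plus strand, 3 transcripts) was expressed at a low level and was higher in prepupae. Its counts of 202, 255 and 175 in larvae and 283, 418 and 361 in prepupae are 7.34, 11.6 and 7.51 CPM against 15.9, 20.7 and 18.96 CPM. No larval library reached the lowest prepupal one. The mean rose from 8.81 ± 2.40 CPM (SD, n = 3) to 18.5 ± 2.42 CPM (SD, n = 3). Its log2 fold change in edgeR was 1.07, with 0.20 as the standard error and an FDR of 0.0018. It ranged from 0.88, under scaling by total counts, to 1.35, without larval replicate 2, and Sp7 was called under every alternative tried. Per length, Sp7 lay at 3.72 ± 1.01 RPKM in larvae and 7.81 ± 1.02 RPKM in prepupae (SD, n = 3 each), below PPO3 in every library.

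Hayan (FBgn0030925, chromosome X, 18479983 to 18483772, minus strand, 3 transcripts) was near the limit of detection. It had 24, 21 and 25 counts in larvae and 13, 20 and 34 in prepupae, so that the stages overlapped and the prepupal libraries spread more widely. Its level was 0.967 ± 0.101 CPM in larvae and 1.17 ± 0.549 CPM in prepupae (SD, n = 3 each). The log2 fold change was 0.28 with a 95% confidence interval of -0.66 to 1.21 (FDR = 0.60, edgeR), an interval that holds a 2-fold higher level as well as no change. It turned to -0.16 without prepupal replicate 3. On the opposite strand, asRNA:CR45714 shares 872 exonic bases with Hayan and had at most 5 counts in any library.

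The 2 dopachrome conversion genes lie next to each other on chromosome 3R, on the same strand and 193 bases apart, and were used very unequally. The gene yellow-f (FBgn0041710, 12991449 to 12993201, minus strand) had 9899, 11086 and 7596 counts in larvae and 10652, 13179 and 11173 in prepupae. Its neighbour yellow-f2 (FBgn0038105, 12993395 to 12995147, minus strand) had 7, 6 and 7 counts in larvae and 8, 0 and 3 in prepupae. Over the 6 libraries yellow-f2 gave 31 of the counts of the pair against 63585 for yellow-f, or 0.0487%. As the proteins are paralogs, a few of these reads could belong to either gene, and the 0 in prepupal replicate 2 allows a level of up to 0.136 per 1000000 counts.

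In CPM, yellow-f lay at 359.7, 503.6 and 326 in larvae and at 599, 652 and 587 in prepupae. Larval replicate 2 came nearest to the prepupal libraries, and the stages did not overlap. The mean rose from 397 ± 94.3 CPM (SD, n = 3) to 613 ± 34.9 CPM (SD, n = 3). With a log2 fold change of 0.63, a standard error of 0.16 and an FDR of 0.0093 in edgeR, this was the smallest change among the 6 called genes. It was called with every library left out (at most FDR = 0.043, edgeR) and fell to 0.43 under scaling by total counts. The gene CG31342, which shares 95 exonic bases with yellow-f on the opposite strand, had 740 to 1900 counts.

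The genes for dopamine synthesis were hardly expressed. The tyrosine hydroxylase gene ple (FBgn0005626, chromosome 3L, 6713356 to 6719525, minus strand, 3 transcripts) had 6, 6 and 12 counts in larvae and 26, 14 and 25 in prepupae, or 0.218, 0.273 and 0.515 CPM against 1.46, 0.693 and 1.31 CPM. All prepupal libraries lay above the larval ones, by as few as 2 counts. The edgeR call, at a log2 fold change of 1.77 with a standard error of 0.50 (FDR = 0.014), was lost without larval replicate 1 (1.54, FDR = 0.067). The other alternatives, left-out libraries included, gave an FDR of 0.0051 to 0.047. In the main fit ple passed the filter on low counts only through its prepupal libraries. It therefore had to differ to be tested, and the call adds no support of its own. Ddc (FBgn0000422, chromosome 2L, 19116483 to 19120306, minus strand) had 9, 4 and 4 counts in larvae and 4, 3 and 3 in prepupae and was not tested. It shares 88 exonic bases with CG10561 on the opposite strand, which had 141 to 213 counts, so reads of Ddc cannot be told from those of its neighbour there.

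Both enzymes are best known from the epidermis, where they serve cuticle tanning, and from dopamine neurons. Of 11 epidermal and cuticle genes, 5 were tested and none was called by edgeR, while 1 was higher at an unadjusted p below 0.05 and 1 by DESeq2. The list summed to between 7.26 and 8.13 CPM in larval and between 9.50 and 12.3 CPM in prepupal libraries, ranges that did not overlap, with Edg84A at 0 in all libraries. Of 7 neuronal genes only elav was tested. Its log2 fold change was -0.91, not called by edgeR at FDR = 0.069, and it was called lower with the replicate block and under scaling by total counts. The list summed to between 2.82 and 5.97 CPM in larval and between 2.78 and 4.05 CPM in prepupal libraries. The part of other tissues in the ple counts was not tested.

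Ordered by level per length, the genes fell into an abundant and a scarce set. In larvae PPO2 came first (669 ± 138 RPKM, rank 148 of 7873 tested genes of known length), then PPO1 (444 ± 121, rank 177) and yellow-f (276 ± 65.5 RPKM, rank 232), with SD over 3 libraries. In prepupae yellow-f came first (426 ± 24.3 RPKM, rank 209), above PPO1 (234 ± 89.3 RPKM, rank 371) and PPO2 (206 ± 109 RPKM, rank 414). Within prepupal replicates 1, 2 and 3 the ratio of PPO2 to PPO1 was 1.00, 0.715 and 0.823. PPO3 rose from rank 4395 to rank 2480. Sp7 followed in both stages, and Hayan, ple, Ddc and yellow-f2 stayed below 1 RPKM in every library, where their order rests on few counts.

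The wider pathway was read from 2 lists. Of 19 genes that recognise microbes, relay the protease cascade or inhibit it, 14 were tested, 5 were called higher (26.6% of all tested genes), 3 lower (27.3%) and 6 not called, with a median log2 fold change of -0.11. Among the higher ones were Spn77Ba, a serpin that restrains melanization (9.53 ± 2.77 to 24.6 ± 2.22 CPM, SD, n = 3 each, log2 fold change 1.37, FDR = 0.00045, edgeR), and PGRP-LC, a peptidoglycan receptor (log2 fold change 1.20). The other 3, named after their values were seen, were the protease genes modSP (1.14) and grass (0.83), which act upstream in the Toll cascade, and the serpin gene Spn88Ea (0.49). The lower genes were spz, the Toll ligand (126 ± 45.4 to 27.0 ± 1.68 CPM, SD, n = 3 each, log2 fold change -2.22, FDR = 7.6e-05, edgeR), the recognition gene PGRP-SA (-1.82) and, named after its value was seen, the serpin gene Spn27A (-0.76), a known inhibitor of prophenoloxidase activation in fly blood. Under scaling by total counts 5 genes were lower, GNBP1 and Spn28Dc added. The gene psh, a protease gene near relative of Hayan, had no count in any library, which allows up to 0.116 to 0.156 per 1000000 counts.

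Of 26 genes for dopamine and cuticle pigment, 24 were in the table and 12 were tested. None of these was called higher by edgeR (0 also at an unadjusted p below 0.05, by DESeq2 and by limma-voom), 3 were lower (27.3% of all tested genes were) and 9 were not called, with a median log2 fold change of -0.31. The lower genes were t, which splits beta-alanyl-dopamine (3.72 ± 1.65 to 0.304 ± 0.178 CPM, SD, n = 3 each, log2 fold change -3.61, FDR = 0.00046, edgeR), AANAT1, which acetylates dopamine (-0.62), and Catsup, a negative regulator of tyrosine hydroxylase (-0.56). Of these, t had 75, 62 and 131 counts in larvae and 7, 2 and 8 in prepupae, so it passed the filter on low counts only through the larval libraries and had to differ to be tested. With the replicate number as a block Dhpr was called higher and e lower as well. Of the 12 genes that were not tested, 10 had fewer than 10 counts in every library.

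**Figure D4:**
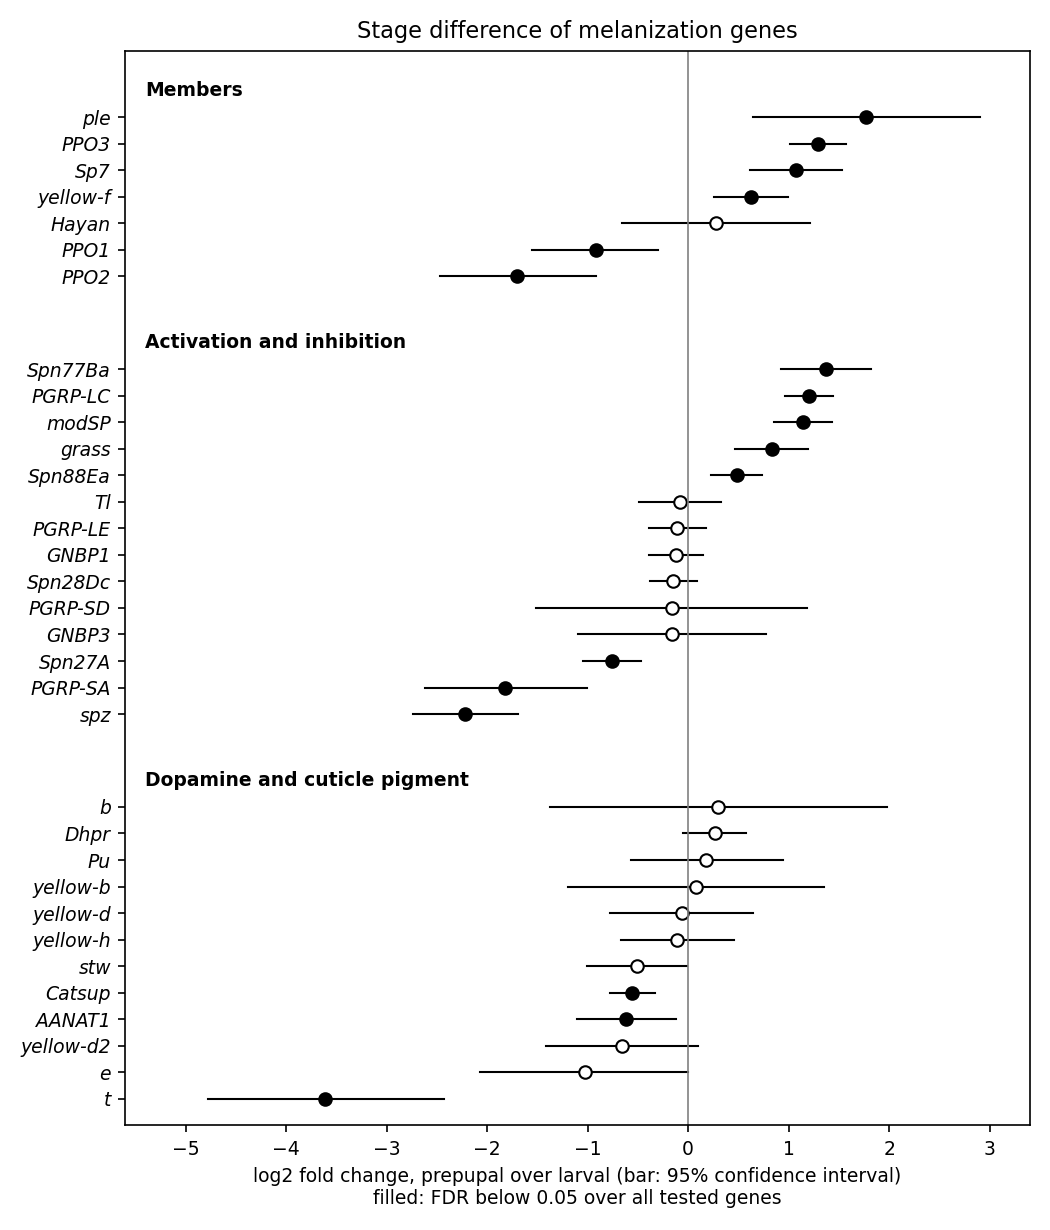
Log2 fold change, prepupal over larval, with its 95% confidence interval for the 7 tested melanization genes and the tested genes of both wider lists, filled where the FDR was below 0.05. The 6 called genes of the first group lie on both sides of 0, and the interval of Hayan spans 0.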

How the data were processed

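According to the methods and labels, the authors made unstranded TruSeq libraries, trimmed the 50 bp reads, ran STAR against dm6 (BDGP6) and deposited raw counts per gene for each library. The submitters' processing notes name featureCounts, with no settings. The stage was the only term of the quasi-likelihood model fitted by edgeR 4.0.16 (under R 4.3.3), after TMM scaling and a filterByExpr filter at 10 counts, and FDR values are Benjamini-Hochberg adjusted over all tested genes, with a threshold of 0.05. The methods name no batch. Standard errors are the log2 fold change divided by the square root of F. Exonic lengths and overlaps came from a later Ensembl annotation of BDGP6, in which 99.7% of the 13332 shared genes had identical coordinates. Log2 CPM used a prior count of 2. Sequences were not used here.

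Members and lists were chosen with earlier results of these data known. Named were all members, at most 4 called genes per wider list with the largest change and no overlap of the stages, the 3 genes nearest to PPO1 and to PPO2, markers beside a result, and further list genes where the text says so. Libraries of a stage differed by more than sampling noise (chi-square per degree of freedom of at least 28.0). Libraries of equal number, each taken relative to its stage mean, correlated at 0.277, 0.300 and 0.102 for replicates 1, 2 and 3. The replicate number was therefore tried as a block among the alternatives, while the main fit used no pairing. No label states a pairing, and correlations between libraries of unlike number are not given here. The scripts were tested on simulated data. Alternatives were other scaling factors and filters, DESeq2 1.42.0, limma-voom (limma 3.58.1), at least 2-fold, the replicate block, removal of the length trend of each library (loess, span 0.5), both together, and each library left out. Floors cover counting error only, while the confidence intervals of fold changes come from the edgeR model and include the spread between libraries.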

Additional observations from a re-analysis of the deposited data

How the results depend on the processing

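Directions of the 7 tested melanization genes held under all alternatives except Hayan, which was never called and lay at -0.16 on the log2 scale without prepupal replicate 3. With at least 2-fold required, 1580 genes were called in place of 4264, PPO1 (-0.92) and yellow-f (0.63) were no longer called, 1 member was called lower in place of 2, and 6 genes of the wider lists were called in place of 11. Scaling by total counts moved the median log2 fold change of all genes to -0.22 and the calls to 1456 higher of 4383, 33.2% against 49.4%, and with it PPO3 lay at 1.09 and PPO1 at -1.13. With each library left out in turn, 3251 to 4552 genes were called in all, 5 to 6 members, 3 to 4 of them higher and 1 to 2 lower, and 10 to 12 genes of the wider lists. The log2 fold changes then ran from -1.21 to -0.66 for PPO1, -2.15 to -1.36 for PPO2, 1.21 to 1.38 for PPO3, 0.96 to 1.35 for Sp7, -0.16 to 0.52 for Hayan, 0.52 to 0.87 for yellow-f and 1.54 to 2.23 for ple. The replicate block called 4736 genes and changed no call among the members, with PPO1 at -0.97 (FDR = 0.0044, edgeR) and PPO2 at -1.83 (FDR = 0.00051), and 13 genes of the wider lists were called. Longer genes tended to have lower log2 fold changes (Spearman correlation of exonic length with log2 fold change -0.4, 7873 genes). With this length trend removed 4056 genes were called, of which 3235 were also called without the removal. PPO1 then lay at -0.78 and PPO2 at -1.56, and with the block as well at -0.83 and -1.69, with every member call kept. The PPO2 to PPO1 ratio was 1.49 in place of 1.53 in larvae and 0.826 in place of 0.847 in prepupae without the length term. The causes of these shifts were not tested. Counts under about 10 per library limit ple, Ddc and yellow-f2.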

Other observations

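Genes of other larval tissues were also counted in the sorted cells. Of 6 fat body genes 5 were tested, 2 (Fbp1 and Fbp2) were higher and 1 (Lsp1gamma) lower in prepupae by edgeR, beside 26.6% and 27.3% of all tested genes, and the list summed to between 27.8 and 34.0 CPM in larval and between 27.0 and 34.8 CPM in prepupal libraries. With scaling by total counts Fbp1 was no longer called, and with the length trend removed Lsp1gamma was not. The 6 salivary gland genes in the table were tested and none was called (0 also at an unadjusted p below 0.05, by DESeq2 and by limma-voom), at summed levels of 6.40 to 9.02 CPM in larval and 6.52 to 9.82 CPM in prepupal libraries. None of the 6 muscle genes was called by edgeR (0 by the same other criteria), and their sum went from between 83.0 and 98.0 CPM to between 71.0 and 81.3 CPM. Most of this sum was Actn, with a mean of 81.9 CPM in larvae and 68.7 CPM in prepupae. The next highest, Mlc2, lay at 3.63 and 3.58 CPM. Under scaling by total counts Actn was called lower.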
